A study of Homo sapiens with 6 samples.

Results

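The genes described here are the proteasome subunits and their assembly and regulatory factors, taken as every row of the deposited table whose symbol is PSM followed by a letter from A to G and a number. The rule found 46 genes among the 15917 listed, out of 48 such genes placed by role in a fixed list. The 2 that are not listed are *PSMA8*, the testis form of an alpha subunit, and *PSMB11*, the thymus form of a catalytic subunit. The table holds no gene with a mean below 26.7 normalized counts, so an unlisted gene may still have been transcribed at a low level.

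The series sequenced total RNA of MDA-MB-231, an established triple-negative breast cancer line, in 6 libraries. Of these, 2 came from cells with the control hairpin shCTRL, labelled WT, 2 from cells with the hairpin shRBMS3-B3, labelled RBMS3 KD1, and 2 from cells with shRBMS3-C3, labelled RBMS3 KD2. RBMS3 is an RNA-binding protein that the study ties to an AUA element in 3′UTRs, and the design asks which transcripts depend on it. All cells carried a hairpin, and ribosomal cDNA was depleted from every library.

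The values used are the authors' mean normalized counts, 1 per gene over libraries of control and knockdown cells together, and which libraries entered the mean is not stated in the sources used here. Neither depth per library nor a spread between replicates goes with them, so levels are given without an error and no difference is tested. The comparison of knockdown with control cells was not analysed here, so nothing below says whether a proteasome gene changed. *RBMS3* itself has a mean normalized count of 271.5, at percentile 43.3 of the table. Per kb of its reference transcript it has 32.1, at percentile 17.3. The knockdown of *RBMS3* could not be checked library by library. The markers expected of this line, *VIM*, *ZEB1*, *CD44*, *AXL* and *FN1*, are all listed, with *VIM* at 69335 normalized counts. *ESR1*, *PGR*, *PTPRC* and *ALB* are not listed. The epithelial cadherin *CDH1* has 31.6, *EPCAM* 107.2 and the endothelial marker *PECAM1* 69.0, while *ERBB2* is listed at 1557.

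The proteasome degrades proteins that carry ubiquitin chains. Its 20S core is a barrel of outer alpha rings, which gate the entrance, and inner beta rings, in which *PSMB5*, *PSMB6* and *PSMB7* encode the catalytic subunits. The 19S cap has a base of ATPases that unfold substrates, receptors that hold ubiquitin, and a lid whose deubiquitinase removes the chain before the substrate enters. Interferon induces *PSMB8*, *PSMB9* and *PSMB10*, which replace the constitutive catalytic subunits in the immunoproteasome, the form known for making peptides for MHC class I.

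Proteasome transcripts were abundant. Their median was 1770 normalized counts against 364 over the whole table. Since longer transcripts give more reads, such counts do not compare genes of unlike length directly, and most levels below were divided by length. Per kb of the whole reference transcript, all 46 members lay above the table's median of 136.5, and 21 lay in its top decile. With the longest transcript, *PSMG2*, *PSMB9* and *PSMG4* fell below the table's median of 118.6, at 53.7, 56.3 and 87.8. With the union of exons the same genes fell below its median of 88.7. The members' own median was 857.7 per kb of reference transcript, against 152.3 for the 12408 listed protein-coding genes, and *PSMB9* at 148.3 lay below the latter. Per kb of coding sequence, the median was 1846 for the members against 363.2 for protein-coding genes, and 43 of the 46 lay above the latter. The 3 below it were *PSMB9*, *PSMB10* and *PSME4*. On the coding scale the 3′UTR is left out of the divisor although reads from it can count. The members are 0.291% of the genes with a length and together made up 0.199% of the summed level per kb of the table. A few very abundant RNAs hold this share down. Without the highest 1% of genes it was 0.886%, with the members 0.294% of the genes kept.

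**Figure D1:**
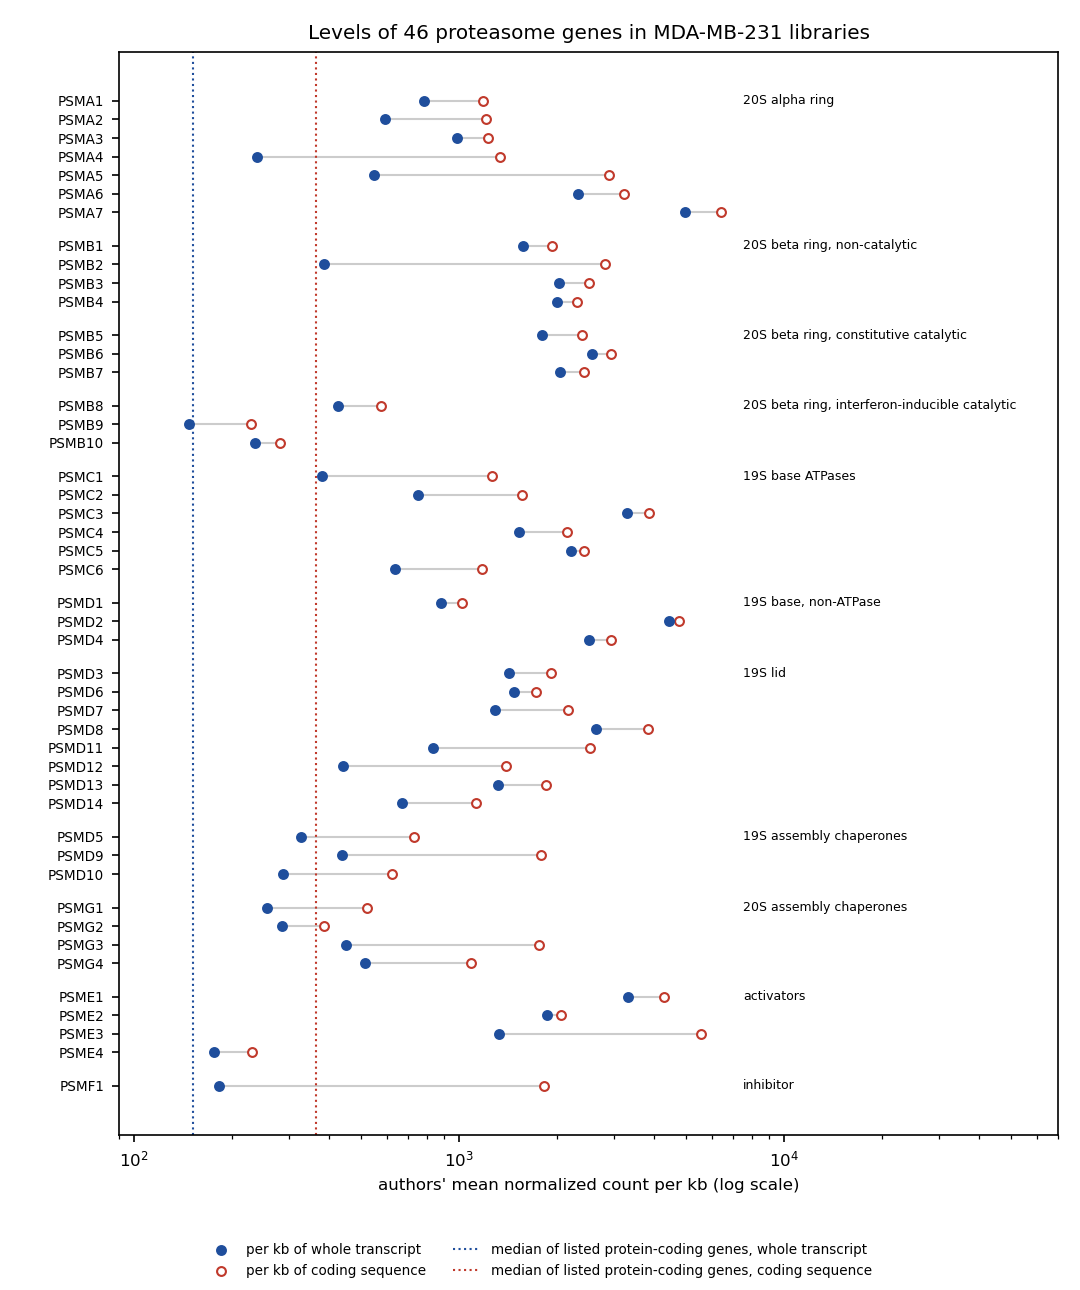
Level of each of the 46 proteasome genes as the authors' mean normalized count per kb on a log axis, divided by the whole reference transcript (filled points) or by its coding sequence (open points), grouped by role, with the medians of listed protein-coding genes as dotted lines. PSMB9, PSME4 and PSMB10 lie lowest on the coding scale, and long grey lines mark PSMA4, PSMA5, PSMB2, PSME3 and PSMF1, whose level depends most on the length used.

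The 7 constitutive beta subunits, which a core particle holds in equal numbers, had nearly equal levels per coding kb and without division by length. They ran from 1943 per coding kb for *PSMB1* to 2945 for *PSMB6*, a range of 1.52-fold. *PSMB5*, the chymotrypsin-like subunit that proteasome inhibitor drugs bind, stood at 2394, *PSMB7*, the trypsin-like subunit, at 2434, and *PSMB6*, the caspase-like subunit, at 2945. The structural subunits *PSMB3* and *PSMB4* stood at 2524 and 2319. Per kb of whole transcript the same 7 genes spread 6.66-fold, and the low end was *PSMB2* at 385.0, whose reference transcript carries a 3′UTR of 3726 bases behind 603 bases of coding sequence. On the coding scale *PSMB2* was at 2826, within the range of the other beta subunits.

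The alpha subunits were less even. Per coding kb, *PSMA1*, *PSMA2*, *PSMA3* and *PSMA4* lay between 1189 and 1344, *PSMA5* and *PSMA6* at 2900 and 3231, and *PSMA7* at 6427, so the ring spanned 5.41-fold. *PSMA7* was the highest of all 46 members on both scales, with 4970 per kb of whole transcript from 4781 normalized counts. The gene (ENSG00000101182) lies on the minus strand at chr20:62136733-62143440 in GENCODE release 44 on GRCh38. Its neighbour in the ring, *PSMA4* (ENSG00000041357, plus strand, chr15:78540405-78552417), was the lowest alpha subunit per kb of whole transcript at 240.4, where its 3′UTR of 3473 bases counts, and stood at 1344 per coding kb.

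In the 19S cap, the ATPases *PSMC1* to *PSMC6* occupy the base as a ring with 1 copy of each. Their levels ran from 1180 per coding kb for *PSMC6* to 3846 for *PSMC3*, a range of 3.26-fold, and *PSMC1*, *PSMC2*, *PSMC4* and *PSMC5* lay between them at 1262, 1567, 2147 and 2421. *PSMD2*, a large scaffold subunit of the base, had the highest mean of all members at 12944 normalized counts, percentile 99.0 of the table. Its level was 4752 per coding kb, and *PSMD1*, the other large scaffold of the base, stood at 1025, the lowest of the 17 cap subunits on that scale. Per kb of whole transcript *PSMD1* had 882.0, and the lowest of the 17 was *PSMC1* at 379.4. The ubiquitin receptor *PSMD4* had 2942 per coding kb. *PSMD2* (ENSG00000175166) is on the plus strand at chr3:184299198-184309050 and has a 3′UTR of 160 bases, so both scales place it near the top.

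The 8 lid genes had a median of 1889 per coding kb and ranged 3.38-fold. The lowest was *PSMD14*, the deubiquitinase of the lid, at 1130, and the highest *PSMD8* at 3816. *PSMD12*, *PSMD6*, *PSMD13*, *PSMD3*, *PSMD7* and *PSMD11* lay between them, from 1401 to 2535. The median of the 14 constitutive core subunits was 2414 per coding kb and that of the 17 cap subunits 1920. Which was higher depended on the length used, since with the longest transcript these medians were 730.8 and 953.1.

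Assembly factors had a median of 729.2 per coding kb over 7 genes, below the medians of the core and the cap, although their range overlapped that of the subunits. For the core these were *PSMG1* at 523.7 and its partner *PSMG2* at 385.7, which form a heterodimer that starts the alpha ring, and *PSMG3* and *PSMG4* at 1762 and 1095, which form the other. For the base they were *PSMD5* at 729.2, *PSMD10*, the oncoprotein gankyrin, at 624.6, and *PSMD9* at 1786. The higher values of *PSMG3* and *PSMG4* rest on coding sequences of 366 and 369 bases. Per kb of the reference transcript the 7 chaperones differed by no more than 1.99-fold, from 258.0 to 514.6. Other lengths spread them more widely, from 53.7 for *PSMG2* to 451.6 for *PSMG3* with the longest transcript. With the union of exons the same genes marked the ends, at 24.5 and 326.9.

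The activators open the core without ATP, and their levels ranged 24.0-fold per coding kb and 18.8-fold per kb of whole transcript. *PSME1* and *PSME2*, the interferon-responsive PA28 subunits that form 1 mixed ring, stood at 4285 and 2063 per coding kb. *PSME3*, the nuclear PA28 gamma, reached 5571 per coding kb, second among the 46 members after *PSMA7* on that scale. Per kb of whole transcript *PSME3* was at 1334, rank 19 of the 46, with 2182 of 3182 bases in the 3′UTR. *PSME4*, which encodes the large activator PA200, was near the bottom at 231.9, with 1282 normalized counts over 5529 coding bases. *PSMF1*, an inhibitor of the core, showed how far the choice of length can carry a value. Its level was 1834 per coding kb and 182.8 per kb of a transcript of 8154 bases, of which 7166 are 3′UTR.

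**Figure D2:**
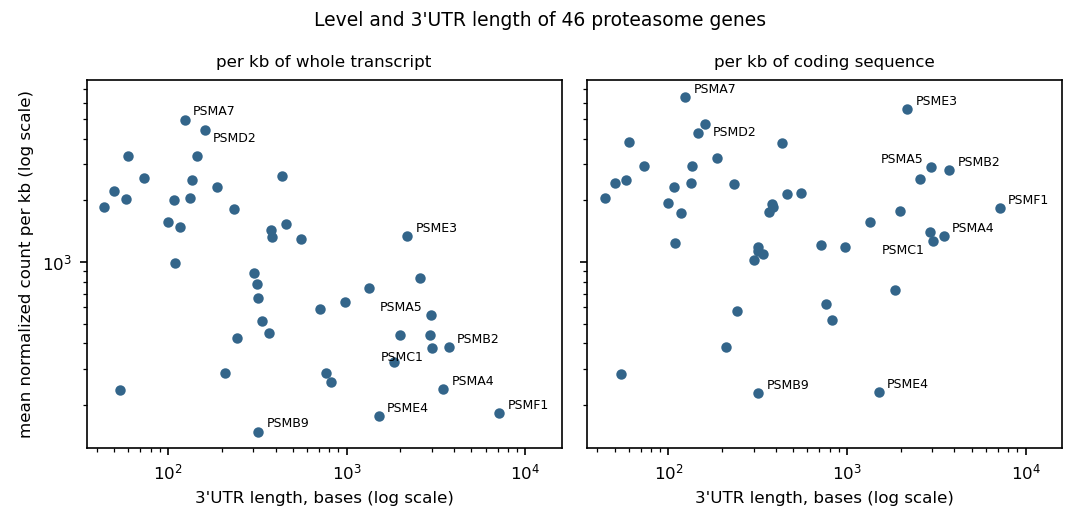
Level per kb (log axis) against 3′UTR length in bases (log axis) for the 46 genes, divided by whole transcript on the left and by coding sequence on the right. Genes with long 3′UTRs lie low on the left, where the 3′UTR is part of the divisor, and among the others on the right, where it is not.

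The 12 members with a 3′UTR over 1000 bases had a median of 411.7 per kb of whole transcript, against 1459 for the other 34. Per coding kb the medians were 1676 and 1932. The whole-transcript scale has the 3′UTR in its divisor, so part of the first contrast follows from the arithmetic. The coding scale leaves the 3′UTR out of its divisor although reads from it can count, so it can raise genes with long 3′UTRs. Neither scale is therefore free of 3′UTR length, and which ends the transcripts use in these cells was not measured.

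Transcripts of the immunoproteasome subunits were less abundant than those of the constitutive subunits they replace. *PSMB8* (ENSG00000204264) had a mean of 476.7 normalized counts, *PSMB10* (ENSG00000205220) 231.3 and *PSMB9* (ENSG00000240065) 150.8, the lowest mean of the 46. Per kb of whole transcript, *PSMB8* was at 23.4% of *PSMB5*, *PSMB9* at 5.79% of *PSMB6* and *PSMB10* at 11.5% of *PSMB7*. Expressed as folds these are 4.27, 17.3 and 8.68 lower. The inducible gene was the lower one of its pair under all 5 ways of counting length, and *PSMB9* gave the smallest share each time. *PSMB8* gave the highest share with 4 of the 5, from 11.9% to 25.2%, but with the union of exons its 11.2% was below the 12.6% of *PSMB10*. The interferon-responsive activator genes did not share this low level, as *PSME1* and *PSME2* were at percentiles 96.9 and 94.4 of the table per kb of whole transcript.

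**Figure D3:**
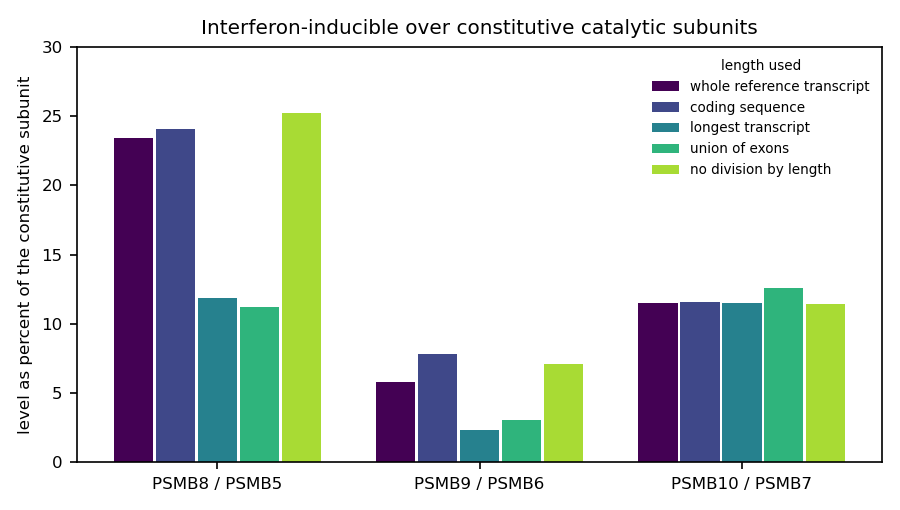
Level of each interferon-inducible catalytic subunit as a percent of the constitutive subunit it replaces, for 5 ways of dividing by length. PSMB9 over PSMB6 is lowest, from 2.32% to 7.79%, and the highest bar is PSMB8 over PSMB5 without division by length, at 25.2%.

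*PSMB8* (minus strand, chr6:32840717-32844679) and *PSMB9* (plus strand, chr6:32844136-32859851) lie in the MHC region and their annotated bodies overlap. *PSME1* and *PSME2* are 4394 bases apart on chromosome 14. The 46 genes are otherwise scattered over 17 chromosomes, with 7 on chromosome 14 and 7 on chromosome 17.

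Reads of some members can be hard to tell from those of other genes. GENCODE names 44 pseudogenes after PSM genes, 17 of the members have at least 1, and 8 of the pseudogenes are listed in the table. *PSMC1* has 13, of which 3 are listed, and *PSMC1P1*, listed as RP11-436J20.2, has a mean of 970.8 normalized counts beside 1665 for *PSMC1* itself. All exonic bases of the *PSMA2* reference transcript also belong to an overlapping gene on the same strand, listed as RP11-111K18.1 with 367.0 normalized counts beside 849.7 for *PSMA2*. Of the exonic bases of *PSMC1*, 83.2% lie opposite exons of *NRDE2*. The library kit keeps strand, but whether quantification used it is not given in the sources used here, so the value of *PSMC1* is uncertain. The same holds for *PSMD7* and *PSMC5*, with 51.6% and 13.7% of exonic bases opposite another gene. The gene opposite *PSMC5* has 3327 normalized counts, beside 2949 for *PSMC5*. Strand cannot part *PSMA2* from the overlapping gene, so its value is uncertain in either case. *PSMB10* shares 56.1% of its exonic bases with a gene on the same strand that has 60.1 normalized counts, and *PSMA6* and *PSMA1* share 81.4% and 67.0% with genes that are not listed.

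Other genes of the pathway, from a list of 19 symbols for 18 genes that includes the antisense RNA *PSMA3-AS1*, were all in the table, and 14 of them lay above its median per kb of whole transcript. The ubiquitin receptor *ADRM1* was the highest at 3505 per kb, and the small cap subunit *SEM1* stood at 1700. *POMP*, which helps to mature the core, had 893.0, more than any of the 7 assembly factors with PSM symbols. *NFE2L1*, the transcription factor that raises proteasome genes when the enzyme is inhibited, had 1050, and *DDI2*, the protease that activates it, 77.1. Proteasome-bound enzymes ran from 122.6 for the deubiquitinase *UCHL5* through 282.4 for *USP14* to 806.8 for the ubiquitin ligase *UBE3C*.

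RBMS3 is tied by the study to a 7-base element that reads, in DNA letters, A, G or T, then A or T, then ATA, then A or T, then A. This element was searched in the 3′UTR of each reference transcript. The 3′UTRs of proteasome genes are short, with a median of 328 bases against 1378 over 12350 listed genes, and their median A+U content is 58.7% against 57.9%. Among 3′UTRs of up to 1000 bases the A+U medians were 59.1% and 53.8%. A match was found in 34 of the 46 members, which is 73.9%, against 84.8% of the listed genes. Among 3′UTRs of up to 300 bases the share was 57.9% of 19 members and 57.9% of 1718 listed genes. Of 3′UTRs over 1000 bases, 12 of 12 members held a match, against 94.8% of listed genes. Among 3′UTRs of up to 1000 bases the share was 64.7% of 34 members and 70.2% of listed genes. Within that class the members' 3′UTRs were still shorter, with a median of 221 bases against 427. Its shares, here and below, are therefore not matched for length. These shares describe sequence, and binding was not measured here.

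The 12 members with no match were *PSMA3*, *PSMB1*, *PSMB5*, *PSMB7*, *PSMC3*, *PSMC4*, *PSMC5*, *PSMD2*, *PSMD3*, *PSMD7*, *PSMG2* and *PSMG3*. The longest annotated 3′UTR of *PSMG2* does hold 1 match. At least 3 matches were found in 17 members, or 37.0%, against 53.1% of listed genes. In 3′UTRs of up to 1000 bases these shares were 17.6% and 20.4%, and over 1000 bases 91.7% and 75.4%. The largest number was in the ATPase *PSMC2*, with 11 in 1341 bases. *PSMA4*, *PSMA5*, *PSMB2* and *PSMD5* had 8 each. Of the 3 constitutive catalytic genes only *PSMB6* had a match, and of the 3 inducible ones all did. All matches of *PSMB6*, *PSMB8* and *PSMB10* lay within 50 bases of the annotated end, and those of *PSMB9* lay farther from it.

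As written, the element overlaps the poly(A) signal. The paper mapped the binding sites of tagged RBMS3 on RNA by CLIP-seq, and it names this signal, AATAAA, as the most significant motif among them. A word that starts with A, G or T and goes on with AATAAA meets both definitions, and 71 of the 121 matches in proteasome 3′UTRs were of this kind. That share of 58.7% compares with 36.0% of 71509 matches over the listed genes. In 3′UTRs of up to 1000 bases it was 64.4% and 53.7%. In 9 members every match was a poly(A) hexamer within 50 bases of the annotated end. These were *PSMA1*, *PSMB3*, *PSMB4*, *PSMB6*, *PSMB10*, *PSMD8*, *PSMD13*, *PSME2* and *PSME3*. They make up 19.6% of the members, against 14.8% of listed genes, but in 3′UTRs of up to 1000 bases the order was the opposite, at 23.5% against 28.5%. Leaving out matches that hold the hexamer, 23 of the 46 members kept at least 1, against 62.4% of listed genes. In 3′UTRs of up to 1000 bases the order again turned, at 38.2% of members against 33.2%. Members had the shorter 3′UTRs in that class too, with a median of 221 bases against 427, so neither change of order is matched for length.

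**Figure D4:**
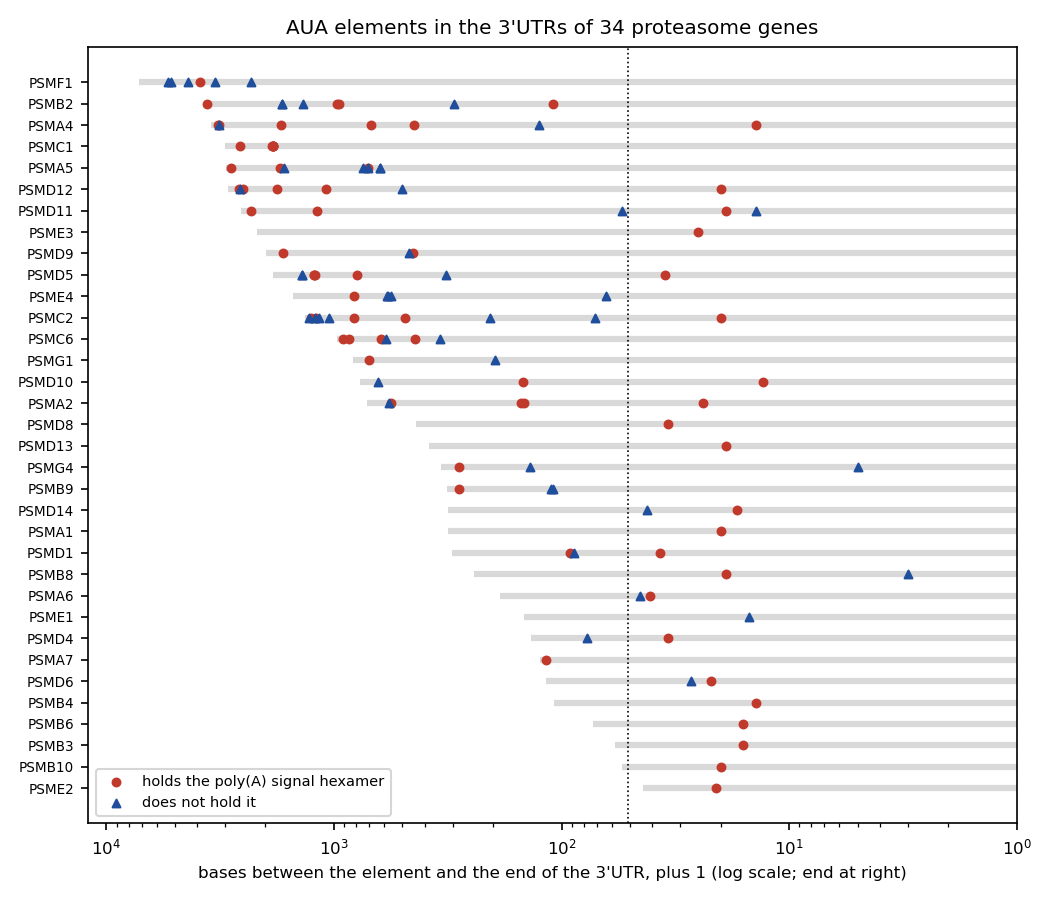
Each match of the AUA element in the 3′UTRs of the 34 proteasome genes that hold one, placed by its distance in bases to the annotated end on a log axis with the end at the right. Circles hold the poly(A) signal hexamer and triangles do not, and bars span the 3′UTR. The dotted line marks 50 bases. In 22 of the 34 genes at least 1 circle lies within that distance of the end, and many other circles lie farther away.

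The sites below are shown because they set both kinds of match side by side. Each is read 5′ to 3′ on the gene's strand from GENCODE transcripts on GRCh38, in DNA letters, with the element in capitals. The first 5 are the only match of their gene and hold the hexamer 13 to 20 bases before the end. They lie at chr17:38764194-38764220 (plus strand), chr1:151401908-151401934 (plus), chr17:4798464-4798490 (plus), chr16:67934515-67934541 (minus) and chr14:24143375-24143401 (minus).
PSMB3: tctttttttgAAATAAAatagcctgtc
PSMB4: tttgtaaagtAAATAAAttcttcaaaa
PSMB6: atgcaaaattTAATAAAgtttgtcaca
PSMB10: gaacaaggggGAATAAAcccagaaaat
PSME2: actagaaggaAAATAAAtgatctatat

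The next 4 do not hold the hexamer. They lie at chr14:24138932-24138958 (plus), chr6:32859725-32859751 (plus), chr7:103368090-103368116 (plus) and chr20:1167836-1167862 (plus). The one in *PSME1* is its only match, and 14 bases separate it from the annotated end. The one in *PSMF1* lies 4394 bases from the end of a 3′UTR that holds 6 matches.
PSME1: caggcacaatAAATATAgttataccac
PSMB9: actaaactagAAATATAaagagcccta
PSMC2: aatcctaaccTTATATAgacttgttaa
PSMF1: gttcatttggGTATATAccaaggagtg

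Promoters were taken as the 300 bases from 250 before to 50 after the start in RefSeq on GRCh38.p14, found for 40 of the 46 members and for 10652 listed genes by symbol. *PSMA7*, *PSMB1*, *PSMB6*, *PSMB7*, *PSMD4* and *PSMG3* had no entry. Short motifs were counted on both strands. The core of the antioxidant response element, TGACNNNGC, the kind of site that NFE2L1 binds, occurred in 13 of the 40 members, which is 32.5%, against 15.1% of the listed promoters and 13.6% of all 27305. The ETS core CCGGAAG was in 12 of 40 members, against 19.5% of listed and 10.7% of all promoters. The CCAAT box was in 45.0%, against 37.0% and 35.7%, and the GC box GGGCGG in 67.5%, against 69.8% and 44.6%. The gamma-activated site TTCNNNGAA was in 4 members, against 6.41% and 7.88%. These are counts of letters, and no factor's binding was measured. The antioxidant motif is shown for a lid, a core and a chaperone gene, with the match in capitals, at chr17:39980762-39980786 (plus), chr17:38752629-38752653 (plus) and chr18:12658691-12658715 (plus).
PSMD3: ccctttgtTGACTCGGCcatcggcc
PSMB3: ctccgtttTGACTTTGCaaccaaac
PSMG2: gtttcccgTGACCCCGCggccgctc

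The core of the interferon-stimulated response element, GAAANNGAA, was found in 7 of the 40, or 17.5%, against 6.59% of listed and 8.29% of all promoters. Of the inducible catalytic genes *PSMB10* held it and *PSMB8* and *PSMB9* did not hold these letters in this window. The other holders were *PSME1* and *PSME2*, the chaperone gene *PSMG4*, and the constitutive subunit genes *PSMA4*, *PSMB4* and *PSMC2*. Windows of 4 of them are shown because genes with this site differed in level, from 236.8 per kb of whole transcript for *PSMB10* to 3317 for *PSME1*. Capitals mark the match, which in *PSME1* is on the other strand, and the positions are chr16:67936855-67936879 (minus), chr14:24136192-24136216 (plus), chr14:24146622-24146646 (minus) and chr6:3258906-3258930 (plus).
PSMB10: gtaaaggcGAAAGCGAAagcaggaa
PSME1: ctaccgctTTCGCTTTCccttcgcg
PSME2: tggggagtGAAAGCGAAagcccggg
PSMG4: ccggggccGAAAGCGAAagcgcgct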

How the data were processed

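Total RNA libraries were made by the authors with a stranded low-input kit. The submitters' processing notes name Salmon, DESeq2 and hg38, with no version. Annotation and the filter on low genes are not given in the sources used here. The authors deposited 1 table with a mean normalized count per gene, a signal averaged over libraries. Its columns of fold change, standard error, test statistic and p-values are the authors' own comparison and were not used, so no count test was run. The planned count test of knockdown needs values per library, which were not analysed here.

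GENCODE release 44 on GRCh38 holds 15829 of the 15917 Ensembl identifiers. All 46 members have a MANE Select transcript, whose length divided the mean. 3′UTRs of at least 7 bases were searched for the AUA element, with overlaps. Every member is accounted for by role, and other genes are named from a fixed pathway list. The members and lists were chosen with earlier results of these data known. Promoter motifs, the limit of 50 bases and the coding scale were chosen after the data were seen. Promoter sequences came from RefSeq. Functions were tested on simulated data. Python 3.11.15, numpy 2.4.6, pandas 2.3.3 and matplotlib 3.10.9 were used.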

Additional observations from a re-analysis of the deposited data

How the results depend on the processing

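The median level of the members was 857.7 per kb of reference transcript. It was 543.3 with the longest transcript, 362.1 with the union of exons, 1846 per coding kb and 1770 without division by length. The share of the summed level was 0.199%, and 0.846% among protein-coding genes or 0.886% without the highest 1%. *PSMB8* over *PSMB5* was 23.4%, and 11.9%, 11.2%, 24.0% and 25.2% with the longest transcript, the union of exons, coding length and no division. In the same order, *PSMB9* over *PSMB6* was 5.79%, and 2.32%, 3.10%, 7.79% and 7.14%. *PSMB10* over *PSMB7* was 11.5% with the reference and the longest transcript, 12.6% with the union of exons, 11.6% with coding length and 11.4% with no division. The medians and the pair ratios change through the lengths alone, and the share through the genes kept. The AUA element was in 34 members with the reference or the longest 3′UTR, in 17 at 3 or more matches, and in 23 without the poly(A) hexamer. The genes behind the equal counts differed, as *PSMA7* had a match only in the reference 3′UTR and *PSMG2* only in the longest. Coding length and the hexamer were chosen after seeing the data. Of the 33 alternatives for medians of subunit groups, 30 moved the value. The number of members was 46 with the table's or GENCODE's symbols. Other normalizations, low-count filters, replicates left out and each hairpin alone were not run, since they need values per library. No paired analysis was possible because each gene has a single pooled mean. Unknown depth limits every value.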

Other observations

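The table also lists 4 antisense RNAs that GENCODE names after proteasome genes, matched by identifier. *PSMA3-AS1*, listed as RP11-349A22.5, had a mean of 518.1 normalized counts and 209.3 per kb of its reference transcript, against 987.0 per kb for *PSMA3*. *PSMG3-AS1* had 84.7 normalized counts, *PSMD6-AS2* 29.5 and *PSMB8-AS1* 29.3, the last of these close to the lowest mean of the table, 26.7.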
